A study of Mus musculus with 107 samples.

Results

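The 8 genes described here are 4 mu-class glutathione transferases (Gstm1, Gstm2, Gstm3 and Gstm5), 1 alpha-class glutathione transferase (Gsta4) and 3 glutathione peroxidases (Gpx1, Gpx4 and Gpx6). They were chosen with their own expression values known, around Gstm3 and Gpx6, which were high in the chr7, chr3 and chr2 deletion clones, so their levels in those clones against parental cells are given as a description, with no test. They are 8 of the 51435 gene IDs counted and 8 of the 19993 genes that passed the filter on low counts. The study mapped chromatin contacts held by Polycomb repressive complex PRC2 and by RNA polymerase II in mouse embryonic stem cells, and then deleted single genomic elements in B6NJ mouse embryonic stem cells. RNA was read by polyA-selected sequencing in 26 libraries of 9 lines. Clones chr9-F1 (2 libraries) and chr9-G9 (3 libraries) carry the deletion targeted to chr9:37451506-37461721 of the mm10 genome, and clones chr7-D4 and chr7-F4 (3 libraries each) the one targeted to chr7:143440438-143450716. Clones chr3-C2 and chr3-H7 and clones chr2-D10 and chr2-G5 (3 libraries each) carry deletions on chromosomes 3 and 2, whose intervals none of the sources used here gives, and undeleted parental B6NJ cells gave 3 libraries. All 9 lines were grown on irradiated mouse embryonic fibroblast feeders with the MEK inhibitor PD0325901 and the GSK3 inhibitor CHIR99021. Each clone is 1 line, and nothing in the labels says that the libraries of a line came from separate cultures, so every p-value here measures the spread between these libraries, which may be technical.

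Glutathione transferases join the tripeptide glutathione to reactive electrophiles, and glutathione peroxidases use glutathione to reduce hydrogen peroxide and organic peroxides. Gpx1 and Gpx4 are selenoproteins, and Gpx4 reduces lipid hydroperoxides within membranes and protects cells from ferroptosis, whereas mouse Gpx6 carries cysteine in place of selenocysteine. Many glutathione genes respond to the transcription factor NRF2 (gene Nfe2l2), which pairs with small Maf proteins on the antioxidant response element and is held back by Keap1.

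Promoter windows are shown for Gstm3, Gpx6, Gstm1, Gstm2 and Gstm5. Gstm3 and Gpx6 are the genes that the choice rests on, and the others are members that lie in a cluster with Gstm3. Each is the RefSeq window of 300 bases on build GRCm38.p6, 250 bases before to 50 after the start, written 5′ to 3′ on the gene's strand. Capitals mark matches, on either strand, to the core of the antioxidant response element TGACNNNGC, the AP-1 core TGANTCA, the CCAAT box (ATTGG on the other strand) or TATAAA. The windows lie at chr3:107969125-107969424 (minus strand) for Gstm3, chr13:21311953-21312252 (plus strand) for Gpx6, chr3:108017769-108018068 (minus strand, the second of 2 windows) for Gstm1, chr3:107986371-107986670 (minus strand) for Gstm2 and chr3:107895604-107895903 (plus strand) for Gstm5.
Gstm3: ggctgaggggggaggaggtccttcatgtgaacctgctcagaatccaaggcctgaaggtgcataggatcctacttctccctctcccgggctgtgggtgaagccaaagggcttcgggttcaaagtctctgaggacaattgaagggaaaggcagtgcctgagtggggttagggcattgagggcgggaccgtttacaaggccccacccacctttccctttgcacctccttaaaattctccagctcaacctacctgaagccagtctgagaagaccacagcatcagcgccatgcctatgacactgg
Gpx6: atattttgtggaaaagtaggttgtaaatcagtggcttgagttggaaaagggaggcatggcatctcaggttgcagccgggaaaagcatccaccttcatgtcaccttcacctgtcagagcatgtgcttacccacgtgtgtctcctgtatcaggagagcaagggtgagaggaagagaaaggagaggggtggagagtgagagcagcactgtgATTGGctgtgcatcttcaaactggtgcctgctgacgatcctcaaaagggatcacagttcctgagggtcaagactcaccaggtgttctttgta
Gstm1: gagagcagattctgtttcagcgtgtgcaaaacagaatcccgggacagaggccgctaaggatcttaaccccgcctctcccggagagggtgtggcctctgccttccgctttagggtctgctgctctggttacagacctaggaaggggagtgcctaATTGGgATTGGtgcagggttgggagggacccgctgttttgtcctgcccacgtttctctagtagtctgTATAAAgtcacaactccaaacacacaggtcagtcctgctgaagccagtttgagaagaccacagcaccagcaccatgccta
Gstm2: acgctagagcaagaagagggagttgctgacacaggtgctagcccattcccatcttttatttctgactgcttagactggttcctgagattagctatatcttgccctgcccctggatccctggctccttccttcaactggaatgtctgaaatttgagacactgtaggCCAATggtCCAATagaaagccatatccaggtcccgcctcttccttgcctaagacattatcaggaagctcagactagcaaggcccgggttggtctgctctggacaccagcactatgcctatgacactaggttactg
Gstm5: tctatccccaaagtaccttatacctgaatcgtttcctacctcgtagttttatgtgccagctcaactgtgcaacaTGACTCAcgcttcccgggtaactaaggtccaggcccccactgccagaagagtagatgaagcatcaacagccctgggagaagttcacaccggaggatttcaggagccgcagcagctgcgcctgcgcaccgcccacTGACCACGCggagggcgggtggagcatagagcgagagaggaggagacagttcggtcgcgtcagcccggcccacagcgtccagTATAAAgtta
The Gstm3 window held none of the 4 motifs, and the Gpx6 window held 1 CCAAT box, at position -42 from the start. The Gstm1 window held CCAAT boxes at -97 and -91 and a TATAAA at -30, and the Gstm2 window held CCAAT boxes at -85 and -77. Among the 5 windows the antioxidant response core appeared in that of Gstm5, at -42, beside an AP-1 core at -176 and a TATAAA at 41. Of the cluster genes not shown, Gstm7 held an antioxidant response core at -129 in its second window, and the windows of Gstm4 and Gstm6 held none. The first Gstm1 window, not shown, held a CCAAT box at -206, no TATAAA and 14 CpG dinucleotides. Of 21263 RefSeq promoter windows of 17492 genes, 13% held the antioxidant response core, 6.99% the AP-1 core, 38.2% a CCAAT box and 12.6% a TATAAA. The windows held 5 CpG dinucleotides for Gstm3, 3 for Gpx6, 8 for Gstm1, 3 for Gstm2 and 18 for Gstm5, against a median of 13 over all windows (quartiles 4 and 24). The longest run shared by the Gstm1 and Gstm3 windows was 16 bases, tgagaagaccacagca. The Gpx1 window held none of the 4 motifs and 11 CpG dinucleotides. The start used for the Gpx6 window lies inside the range annotated for that gene. A match is a description of letters, and its absence says only that these letters are not in this window.

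The Gstm genes lie within 149 kb of chromosome 3 (chr3:107895854-108045179, mm10), in the order Gstm5, Gstm7, Gstm6, Gstm3, Gstm2, Gstm1 and Gstm4. Gstm5 is read from the plus strand and the others from the minus strand. Gpx6 lies at chr13:21295465-21319625, Gpx4 at chr10:80047166-80056439, Gpx1 at chr9:108339080-108340342 and Gsta4 at chr9:78191966-78209349. Gsta4 is 40.7 Mb and Gpx1 70.9 Mb from the interval targeted in the chr9 clones. The deletion of the chr3 clones is on the chromosome of the Gstm genes, at a distance that none of the sources used here gives. The Gstm genes are close paralogs, and 17.8% to 21% of the alignments per library were set aside by the counting as not unique, so reads of near-identical copies could have been dropped or split among them and the levels of single Gstm genes are uncertain to that extent. Gpx6 overlaps the listed gene Gm11270 and Gstm5 overlaps 4933431E20Rik; none of the sources used here states whether the counting used strand, and reads of overlapping genes may then not be told apart.

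**Figure D1:**
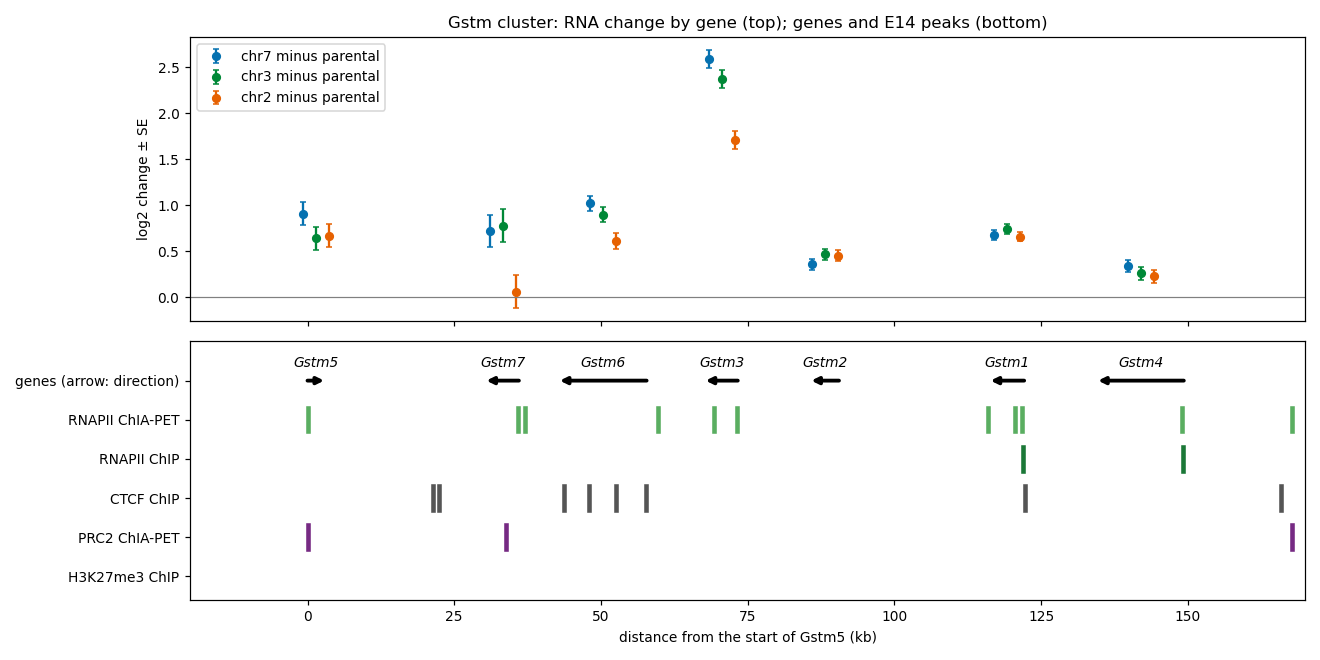
The Gstm cluster by distance from the start of Gstm5 in kb: above, the log2 change ± SE of each Gstm gene in the chr7, chr3 and chr2 clones against parental cells, and below, the genes as arrows in their direction of reading with the E14 peaks of each assay. Gstm3 stands at 2.59, 2.37 and 1.71, above its neighbours Gstm6 and Gstm2, and the H3K27me3 row is empty.

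The libraries differed in depth by group. The 8 chr9 and parental libraries held 90.2 to 128 M counted reads, and the 18 chr7, chr3 and chr2 libraries 39.7 to 60.2 M. The biological coefficient of variation was 7.39%. A list of 10 pluripotency genes summed to between 8130 and 10500 CPM (counts-per-million, the reads of a gene scaled to the same number of counted reads in every library) in every line, and Pou5f1, which defines pluripotent cells, averaged 1080 CPM in parental cells. The list's members did not move as 1 block. Against parental cells edgeR called 2 higher and 6 lower in chr7, and 4 and 3 in chr3. The counts were 4 and 4 in chr2 and 3 and 3 in chr9. Of all genes, 27.5% were called higher and 35.7% lower in chr7, and 25.3% and 35.5% in chr3. In chr2 the shares were 31.1% and 34.1%, and in chr9 17.1% and 20.5%. Klf4 fell by 1.02, 0.77 and 1.09 on the log2 scale in chr7, chr3 and chr2 (edgeR adjusted p = 1.79e-10, 2.17e-08 and 4.75e-11) and Tdgf1 fell by 0.75, 0.47 and 0.92 (7.78e-18, 5.02e-12 and 1.44e-20). Dppa5a rose by 0.9, 1.01 and 1.22 (edgeR adjusted p = 1.58e-15, 1.46e-16 and 4.33e-19), and Nanog fell by 0.61 in chr7 and 0.69 in chr3 (1.14e-13 and 6.18e-15). Levels in CPM are not corrected for gene length, so they are compared between lines and not between genes.

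Gstm3 was high in all chr7, chr3 and chr2 clones. It read 17.4, 18.3 and 18.8 CPM in the libraries of chr7-D4 and 16.6, 16.2 and 17.6 CPM in those of chr7-F4, against 3.03, 2.55 and 3.24 CPM in parental cells. The chr3 clones had 12.4, 12.7 and 14.6 CPM in chr3-C2 and 14.7, 16 and 17.2 CPM in chr3-H7. In chr2-D10 it read 11.9, 13.6 and 15.7 CPM, and in chr2-G5 6.84, 6.5 and 6.85 CPM. Every one of these 18 libraries lay above every parental library, and chr2-G5 lay apart from the other clones. The mean was 18.2 ± 0.697 CPM (SD, n = 3) in chr7-D4, 6.18 times the parental mean of 2.94 ± 0.359 CPM (SD, n = 3), and 6.73 ± 0.202 CPM (SD, n = 3) in chr2-G5, 2.29 times it. On the log2 scale Gstm3 was higher than in parental cells by 2.59 ± 0.096 (SE) in chr7, 2.37 ± 0.0954 in chr3 and 1.71 ± 0.0951 in chr2, each the mean of 2 clones. In order of level, chr7-D4, chr7-F4, chr3-H7, chr2-D10 and chr3-C2 overlapped neighbour by neighbour, and chr2-G5, chr9-G9, parental cells and chr9-F1 followed with no overlap between neighbours. In bulk RNA, fewer cells of a type and less RNA per cell cannot be told apart.

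Gpx6 was the other gene with a large difference. It read 9.12, 9.54 and 7.07 CPM in chr7-D4 and 9.08, 7.63 and 7.63 CPM in chr7-F4, against 1.25, 1.73 and 1.33 CPM in parental cells. The chr3 clones had 8.34, 9.93 and 10.5 CPM in chr3-C2 and 7.32, 10.2 and 9.04 CPM in chr3-H7. The chr2 clones had 10.1, 9.45 and 7.84 CPM in chr2-D10 and 2.73, 2.49 and 2.43 CPM in chr2-G5. As for Gstm3, all 18 libraries lay above the parental ones and chr2-G5 lay lowest of the 6 clones. The ratio of the clone mean to the parental mean ran between 5.65 and 6.68 in 5 clones and was 1.78 in chr2-G5. The log2 change against parental cells was 2.56 ± 0.153 (SE) in chr7, 2.75 ± 0.153 in chr3 and 1.76 ± 0.154 in chr2. Behind these values stood 99 to 576 reads of Gpx6 and 250 to 939 reads of Gstm3 per library, parental ones included. Of all 19993 genes, 1.53%, 1.84% and 6.85% had a larger log2 change than Gstm3 in chr7, chr3 and chr2, and 1.61%, 1.17% and 6.56% a larger one than Gpx6.

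The comparisons with parental cells share the 3 parental libraries and a gap in depth. With every library thinned to 39702669 counts, the log2 change of Gstm3 was 2.72, 2.48 and 1.83 in chr7, chr3 and chr2, and that of Gpx6 was 2.61, 2.77 and 1.8. The median log2 change of all genes was -0.067, -0.075 and -0.017 in the same order.

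Markers of other cells moved with the groups, and their part in the differences described here was not tested. The summed level of 20 feeder fibroblast markers was 115 to 143 CPM in the chr7 clones, 100 to 106 CPM in the chr3 clones, 160 to 171 CPM in chr2-D10 and 193 to 202 CPM in chr2-G5, against 195 to 230 CPM in parental cells. The chr9 clones had 199 to 243 CPM in chr9-F1 and 312 to 566 CPM in chr9-G9. Among 18 feeder markers tested, edgeR called 12 lower in chr7, 16 lower and 1 higher in chr3, 4 higher and 5 lower in chr2, and 15 higher and 1 lower in chr9. Vim made up most of the feeder sum, at 120 CPM in parental cells, and the list's median log2 change was -0.67 in chr7, -1.88 in chr3, -0.14 in chr2 and 0.99 in chr9. In chr3 the matrix genes Col1a1 and Col3a1 fell by 2.5 and 3.65 (edgeR adjusted p = 2.5e-07 and 2.69e-09) and Lox, which cross-links collagen, fell by 2.97 (8.19e-07). Twist2 was at 0 in the libraries of both chr7 and both chr3 clones, Lum was at 0 in chr7-D4, chr3-C2 and chr3-H7, and Dcn in chr7-F4 and chr3-H7. In the deeper parental libraries Twist2, Lum and Dcn averaged only 0.0454, 0.00888 and 0.0616 CPM, so these zeros say little. Of 10 markers listed for the rare state that resembles the 2-cell embryo, the 8 matched in the count table summed to 93.9 to 95.1 CPM in chr9-F1, 30.1 to 33.9 CPM in chr9-G9, 3.21 to 4.48 CPM in the chr7 clones and 1.2 to 3.37 CPM in the chr3 clones. They summed to 8.68 to 10.3 CPM in chr2-D10 and 6.78 to 9.11 CPM in chr2-G5, against 15.2 to 16.7 CPM in parental cells. The 10 primitive endoderm markers summed to 279 to 290 CPM in chr9-F1, 257 to 265 CPM in chr9-G9, 186 to 235 CPM in the chr7 clones and 195 to 261 CPM in the chr3 clones. In chr2-D10 they summed to 285 to 297 CPM and in chr2-G5 to 225 to 235 CPM, against 176 to 200 CPM in parental cells. Of these 10, edgeR called 6 higher and 0 lower in chr9 and 1 and 2 in chr7. It called 2 and 2 in chr3 and 4 and 3 in chr2. Beside the marker counts, 27.5% of all genes were called higher and 35.7% lower in chr7, and 25.3% and 35.5% in chr3. In chr2 the shares were 31.1% and 34.1%, and in chr9 17.1% and 20.5%.

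**Figure D2:**
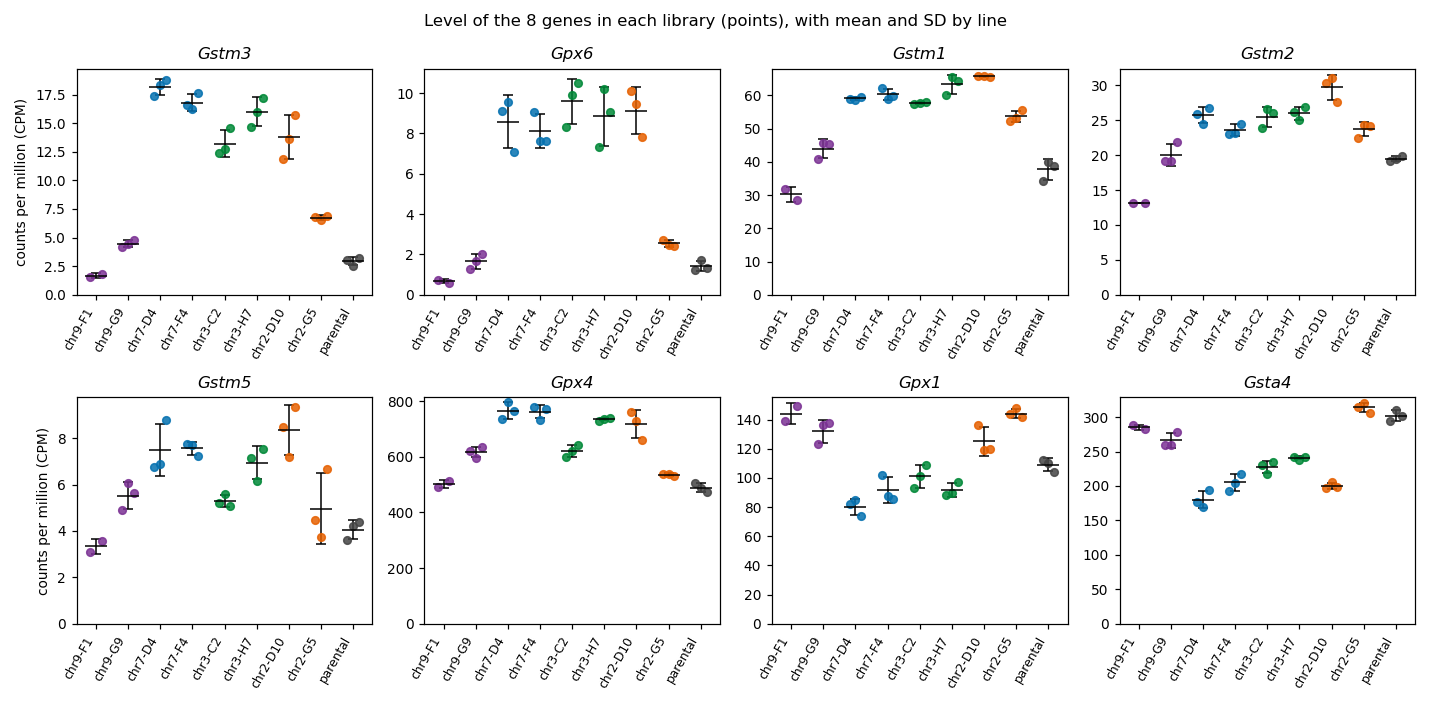
Expression of the 8 genes in CPM (1 panel per gene, linear axis from 0) in each of the 8 clones and in parental cells, with 1 point per library and bars for the mean and SD of each line. Gstm3 and Gpx6 stand highest in the chr7, chr3 and chr2 clones, with chr2-G5 between those and parental cells.

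The other mu-class genes were higher by less. Gstm1, a widely expressed mu-class transferase, had 52.3, 59.3 and 65.9 CPM as the lowest, median and highest of the 18 chr7, chr3 and chr2 libraries, against 34.2, 40.1 and 38.6 CPM in parental cells. Gstm2 had 22.5, 25.4 and 31.0 CPM as the lowest, median and highest, against 19.1, 19.4 and 19.9 CPM in parental cells. Both genes lay above parental cells in every one of the 18 libraries. Gstm5 had 3.73, 7.03 and 9.37 CPM as the lowest, median and highest, against 3.59, 4.21 and 4.38 CPM in parental cells, and 17 of 18 libraries lay above the parental range. The exception was 1 chr2-G5 library, at 3.73 CPM beside 4.49 and 6.67 CPM in the other two. The log2 changes in chr7, chr3 and chr2 were 0.68 ± 0.0516, 0.74 ± 0.0517 and 0.66 ± 0.0517 for Gstm1. They were 0.36 ± 0.0593, 0.47 ± 0.0593 and 0.45 ± 0.0595 for Gstm2, and 0.91 ± 0.127, 0.64 ± 0.126 and 0.67 ± 0.127 for Gstm5. The change of Gstm3 in chr7 was thus 2.59 on this scale beside 0.36 for Gstm2, its neighbour in the cluster.

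The remaining members went different ways. Gpx4 had 531, 732 and 797 CPM as the lowest, median and highest of the 18 libraries, against 505, 489 and 474 CPM in parental cells, and lay above them in all 18. Its log2 change was 0.66 ± 0.0469 in chr7, 0.53 ± 0.0466 in chr3 and 0.35 ± 0.0463 in chr2. In chr2-G5 it read 537, 538 and 531 CPM, close above the parental range. Gpx1, the cytosolic peroxidase, had 73.7 to 102 CPM in the chr7 clones, 88.2 to 109 CPM in the chr3 clones and 119 to 148 CPM in the chr2 clones, against 112, 110 and 104 CPM in parental cells. It therefore lay below parental cells in chr7, overlapped them in chr3 and lay above them in chr2. Gsta4, which conjugates the lipid peroxidation product hydroxynonenal, had 170 to 217 CPM in the chr7 clones and 218 to 242 CPM in the chr3 clones, against 294, 310 and 301 CPM in parental cells. In the chr2 clones Gsta4 split, with 197, 205 and 198 CPM in chr2-D10 and 315, 320 and 306 CPM in chr2-G5. The log2 changes of Gpx1 were -0.32 ± 0.0697, -0.11 ± 0.0699 and 0.31 ± 0.0709 in chr7, chr3 and chr2, and those of Gsta4 were -0.63 ± 0.0391, -0.3 ± 0.0394 and -0.26 ± 0.0395. All 18 libraries lay above all 3 parental libraries for 5 of the 8 genes, as for 9.11% of all genes tested, and for none of the 8 did all 18 lie below, as for 16.7% of all genes. Since the genes were chosen on this contrast, nothing is read from that count.

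Over the 9 line means the log2 CPM of Gstm3 and Gpx6 correlated with Pearson's r = 0.983. Gstm1 correlated with Gstm3 at 0.972 and with Gstm2 at 0.967, and Gpx4 correlated with Gstm3 at 0.931. Gsta4 ran the other way, at -0.843 with Gpx4 and -0.708 with Gstm3, and Gpx1 correlated with Gstm3 at -0.657. These values describe 9 lines that share a parental genome and fall into 2 depths. Gstm3 and Gpx6 were chosen as high in the same chr7, chr3 and chr2 clones, and the other members around them. Correlations among the genes high there follow in part from that choice, and nothing is read from them. The genes most like Gstm3 over the 9 lines, among 12397 compared, were Rgcc (0.995), the small nucleolar RNA host gene Snhg8 (0.995), Ghitm (0.99), the respiratory complex I subunit gene Ndufa13 (0.989) and Tmem256 (0.988). Those most like Gpx6 were the DNA glycosylase gene Neil2 (0.994), Ubn1 (0.992), the lysosomal membrane protein gene Scarb2 (0.989), Nemp2 (0.989) and Fbxo7 (0.989).

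The genes were chosen for their pattern in the chr7, chr3 and chr2 clones and not for that in chr9, so the 2 chr9 clones were tested against parental cells. The parental libraries are the same ones that the choice used, so these tests are not fully free of it. In the mean of the 2 clones, 4 of the 8 genes passed edgeR's quasi-likelihood test at an adjusted p of 0.05, adjusted by Benjamini-Hochberg over all genes, where 37.6% of all genes did (17.1% higher, 20.5% lower). The 2 clones then parted. Clone chr9-F1 had Gstm3 at 1.51 and 1.84 CPM and Gpx6 at 0.742 and 0.603 CPM, below every parental library. In chr9-G9, Gstm3 read 4.17, 4.42 and 4.78 CPM, above every parental library, and Gpx6 read 1.28, 1.68 and 2.0 CPM, overlapping the parental range of 1.25 to 1.73 CPM. In chr9-F1, 6 of the 8 genes passed, 5 of them lower, beside 24.4% of all genes (12.3% higher, 12.1% lower). Gpx6 fell in chr9-F1 by 1.16 ± 0.217 (SE) on the log2 scale (edgeR adjusted p = 9.4e-05) and Gstm3 fell by 0.86 ± 0.129 (edgeR adjusted p = 2.43e-06). Gstm2 fell by 0.62 ± 0.0769 (edgeR adjusted p = 5.6e-08) and Gstm1 fell by 0.38 ± 0.0657 (edgeR adjusted p = 2.9e-05), so 3 of the 4 Gstm genes fell in chr9-F1. Gstm5 read 3.11 and 3.57 CPM there, with a log2 change of -0.33 (edgeR adjusted p = 0.14). Gpx1 rose by 0.36 ± 0.0892 (edgeR adjusted p = 0.00437), a call lost without chr9-F1 replicate 2 (0.3, adjusted p = 0.0847). Gsta4 fell by 0.14 ± 0.0514 (edgeR adjusted p = 0.0465), a call lost on leaving out any of 12 of the 26 libraries (adjusted p up to 0.227), with other size factors (0.0518) and with no filter on low counts (0.087).

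In chr9-G9, 4 of the 8 genes passed, 3 of them higher, beside 45.4% of all genes (20.9% higher, 24.5% lower). Gstm3 rose by 0.5 ± 0.104 (SE) on the log2 scale (edgeR adjusted p = 0.000147). Gpx4 rose by 0.24 (edgeR adjusted p = 0.000283), with 621, 597 and 635 CPM in chr9-G9 against 505, 489 and 474 CPM in parental cells. Gsta4 fell by 0.28 (edgeR adjusted p = 4.26e-06), with 259, 260 and 279 CPM against 294, 310 and 301 CPM in parental cells. Gstm5 rose by 0.35 ± 0.14 (edgeR adjusted p = 0.0382), a call lost without parental replicate 1 (0.27, adjusted p = 0.182), parental replicate 2 (0.39, 0.054), chr9-G9 replicate 2 (0.28, 0.148) or chr9-G9 replicate 3 (0.34, 0.0865). Gpx6 had a log2 change of 0.11 (edgeR adjusted p = 0.647) and Gstm2 one of -0.054 (adjusted p = 0.543). In the mean of both clones, Gstm2 fell by 0.34 (edgeR adjusted p = 2.16e-05) and Gpx1 rose by 0.27 (adjusted p = 0.00454). Gsta4 fell by 0.21 (edgeR adjusted p = 9.62e-05). Gpx6 fell by 0.52 ± 0.163 (edgeR adjusted p = 0.0102), a call lost without parental replicate 2 (-0.37, adjusted p = 0.125) or chr9-F1 replicate 2 (-0.45, adjusted p = 0.0669). Gstm3 had a mean change of -0.18 (adjusted p = 0.151), with the fall in the F1 clone and the rise in the G9 clone averaged.

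The clones of 1 deletion were compared with each other. chr9-G9 against chr9-F1 passed for 7 of the 8 genes, 6 of them higher in chr9-G9, where 31.4% of all genes passed, 14% higher and 17.4% lower (6269 genes, against 4037 without chr9-F1 replicate 1 and 3882 without chr9-F1 replicate 2). Gstm3 was higher in chr9-G9 by 1.36 ± 0.127 (SE) on the log2 scale (edgeR adjusted p = 2.08e-10) and Gpx6 by 1.26 ± 0.216 (adjusted p = 1.83e-05). Gstm5 was higher by 0.68 ± 0.161 (edgeR adjusted p = 0.00105), Gstm2 by 0.57 (3.47e-07), Gstm1 by 0.5 (1.86e-07) and Gpx4 by 0.25 (0.000937). Gsta4 was lower, at -0.14 (edgeR adjusted p = 0.0315), a call lost without chr9-F1 replicate 1 or 2 or chr9-G9 replicate 1 or 2 (adjusted p between 0.092 and 0.176) and under 4 other settings (0.0561 to 0.158). The clones of chr2 differed in 7 of the 8 genes as well, where 50.6% of all genes passed (25.7% higher, 24.9% lower), and 6 of the 7 were lower in chr2-G5. For chr2-G5 minus chr2-D10, the log2 difference was -1.9 ± 0.169 for Gpx6 (edgeR adjusted p = 6.4e-12) and -1.08 ± 0.104 for Gstm3 (adjusted p = 2.96e-11). It was -0.8 ± 0.149 for Gstm5 (edgeR adjusted p = 2.12e-05), -0.48 for Gpx4 (7.84e-10), -0.39 for Gstm2 (1.29e-05) and -0.35 for Gstm1 (4.49e-06). Gsta4 ran the other way, higher in chr2-G5 by 0.59 ± 0.0465 (edgeR adjusted p = 2.03e-13). Gpx1 differed by 0.15 (edgeR adjusted p = 0.127), and passed without chr2-D10 replicate 1 (0.25, adjusted p = 0.0116). All 4 Gstm genes, Gpx6 and Gpx4 thus lay lower in chr2-G5 than in chr2-D10 and lower in chr9-F1 than in chr9-G9.

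Within chr7 and within chr3, 1 of the 8 genes passed between the 2 clones. Between chr7-F4 and chr7-D4, beside 1.07% of all genes, it was Gsta4, higher in chr7-F4 by 0.19 ± 0.0465 (SE) on the log2 scale (edgeR adjusted p = 0.0363). That call was lost without chr9-F1 replicate 1 or 2, chr7-D4 replicate 1 or 2, or chr7-F4 replicate 2 or 3 (adjusted p between 0.0526 and 0.192), and in a fit to the compared libraries alone (0.152). Between chr3-H7 and chr3-C2, beside 0.9% of all genes, it was Gpx4, higher in chr3-H7 by 0.25 ± 0.0528 (edgeR adjusted p = 0.0101). It was lost without chr3-C2 replicate 1 (0.23, adjusted p = 0.0975) or chr3-H7 replicate 3 (0.23, adjusted p = 0.0759). The other 7 genes had adjusted p of at least 0.304 in chr7 and at least 0.176 in chr3 (edgeR), which does not show that they were equal. The 214 genes called in chr7 became 53 to 136 without chr7-D4 replicate 1 or 2 or chr7-F4 replicate 1 or 2, and 657 without chr7-D4 replicate 3. The 180 called in chr3 became 59 to 98 without chr3-C2 replicate 1 or 2 or chr3-H7 replicate 1 or 3.

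Deletions were compared as means of their 2 clones. chr2 against chr7 passed for 5 of the 8 genes, beside 54.9% of all genes, and the log2 difference was -0.88 for Gstm3 (edgeR adjusted p = 1.87e-13) and -0.8 for Gpx6 (adjusted p = 1.66e-07), both lower in chr2. Gpx4 was lower, at -0.32 (edgeR adjusted p = 3.06e-09), and Gpx1 and Gsta4 were higher by 0.64 (1.03e-09) and 0.37 (2.5e-12). chr2 against chr3 passed for 4 of the 8, beside 57.3% of all genes, and again Gpx6 and Gstm3 were lower in chr2, at -0.99 (edgeR adjusted p = 1.39e-09) and -0.66 (3.22e-10), while Gpx1 was higher by 0.42 (8.46e-07) and Gpx4 lower, at -0.18 (7.03e-05). These chr2 means average chr2-D10 with chr2-G5, which differed from each other as given above. chr7 against chr3 passed for 4 of the 8, beside 23.9% of all genes. Gsta4 was lower in chr7, at -0.33 (edgeR adjusted p = 1.28e-09), as was Gpx1, at -0.21 (0.0087), and Gpx4 was higher by 0.13 (0.00684). Gstm3 was higher in chr7 by 0.22 (edgeR adjusted p = 0.0147), a call lost without chr3-H7 replicate 1 (0.19, adjusted p = 0.0574), and Gpx6 had a difference of -0.19 (adjusted p = 0.218).

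**Figure D3:**
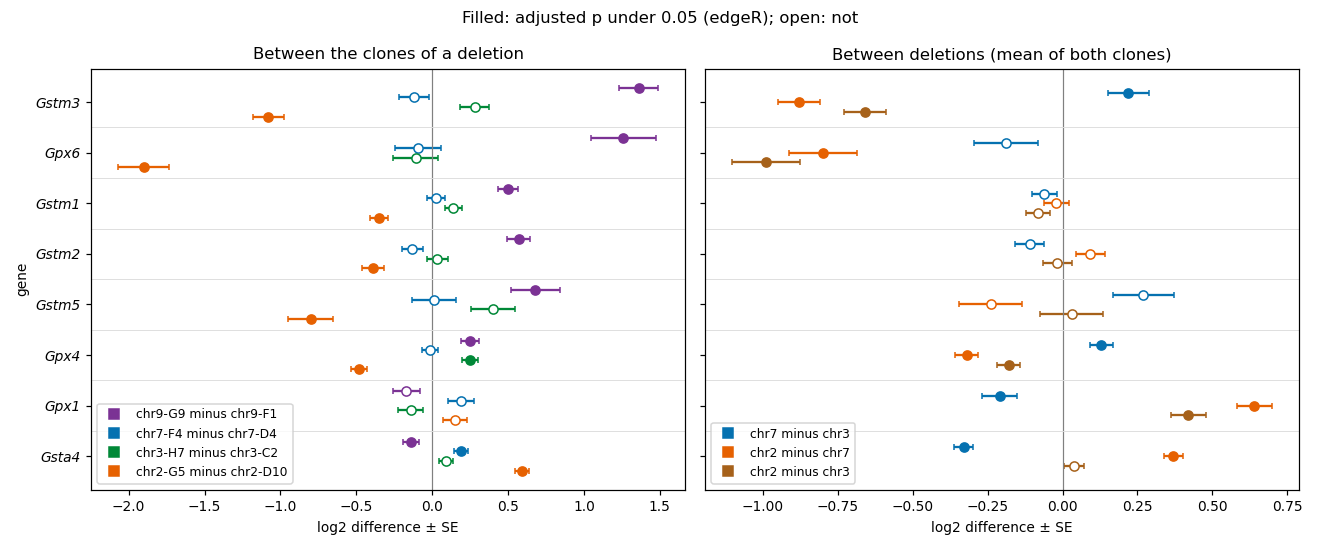
Log2 differences ± SE of the 8 genes between the 2 clones of each deletion (left) and between deletions (right), filled where the edgeR adjusted p was under 0.05. The chr2 pair and the chr9 pair hold the widest differences, with Gpx6 at -1.9 and Gstm3 at -1.08 between chr2-G5 and chr2-D10.

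Among the 20 other glutathione transferase genes tested, of 22 listed, edgeR called 10 higher and 5 lower in chr7, 9 and 4 in chr3, 8 and 5 in chr2, and 5 and 8 in chr9, against parental cells. Of all genes, 27.5% were called higher and 35.7% lower in chr7, 25.3% and 35.5% in chr3, 31.1% and 34.1% in chr2, and 17.1% and 20.5% in chr9. The list's median log2 change was 0.3, 0.24, 0.13 and -0.1 in that order, where the median of all genes in chr9 was -0.015. Within the cluster Gstm6 rose by 1.02 in chr7 (edgeR adjusted p = 6.12e-13), 0.9 in chr3 (1.8e-11) and 0.61 in chr2 (1.15e-07), and fell by 0.39 in chr9 (0.000427). Gstm6 had clone values of 1.01 in chr2-D10 and 0.2 in chr2-G5, the same order as for Gstm3. Gstm7 rose by 0.72 in chr7 (edgeR adjusted p = 0.000525) and 0.78 in chr3 (0.000211), and its chr2 value was 0.06 (0.785). In chr9 Gstm7 fell by 0.51 (edgeR adjusted p = 0.022), a call lost without parental replicate 2 (-0.35, adjusted p = 0.203) or chr9-F1 replicate 2 (-0.45, 0.0923). Gstm4 rose by 0.34 in chr7 (edgeR adjusted p = 4.81e-05) and 0.26 in chr3 (0.00133), and by 0.23 in chr2 (0.00475), a call lost without parental replicate 2 (0.18, adjusted p = 0.0545).

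Genes of other transferase classes differed in direction. The theta-class gene Gstt2 rose by 1.64 in chr7 (edgeR adjusted p = 2.14e-20) and 1.78 in chr3 (4.63e-21) and fell by 0.7 in chr9 (1.83e-09). In chr2 Gstt2 rose by 0.21 (edgeR adjusted p = 0.016), a call lost without parental replicate 3 (0.18, adjusted p = 0.0765) or chr2-D10 replicate 1 (0.16, 0.0528). Gstt1 rose by 1.01 in chr7 (edgeR adjusted p = 6.33e-08) and 0.68 in chr3 (6.24e-05), and fell by 0.65 in chr9 (0.000326), with a chr2 value of -0.18 (0.257). The microsomal gene Mgst3 rose by 0.68 and 0.66 in chr7 and chr3 (edgeR adjusted p = 2.84e-12 and 6.54e-12), and went the other way in chr2 and chr9. It fell by 0.17 in chr2 (edgeR adjusted p = 0.0134), a call lost without parental replicate 1 (-0.13, adjusted p = 0.118). In chr9 it fell by 0.16 (edgeR adjusted p = 0.0326), a call lost without parental replicate 1 or 2, chr9-F1 replicate 1 or chr9-G9 replicate 1 (-0.12, -0.18, -0.14 and -0.15, with adjusted p = 0.207, 0.0573, 0.134 and 0.0669). The alpha-class gene Gsta3 fell by 1.44 in chr7 (edgeR adjusted p = 3.23e-09) and 1.17 in chr3 (1.69e-07), and rose by 0.62 in chr2 (0.0012) and 0.71 in chr9 (0.000696). Gsto1 fell by 0.59 and 0.52 in chr7 and chr3 (edgeR adjusted p = 2.06e-12 and 5.08e-11) and rose by 0.27 in chr9 (0.000126), with a chr2 value of -0.061 (0.315). The pi-class gene Gstp2 fell by 0.35 and 0.28 in chr7 and chr3 (edgeR adjusted p = 4.7e-05 and 0.000876) and rose by 0.74 in chr2 (2.24e-11) and 0.56 in chr9 (8.23e-08). One of these genes, Mgst2, was called higher in all 6 chr7, chr3 and chr2 clones, as were 9.02% of all genes, and averaged 0.0679 CPM in parental cells.

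Of 4 other peroxidase genes tested, of 5 listed, 2 fell in chr7, 2 fell in chr3, and 3 fell and 1 rose in chr2. Gpx2, the peroxidase of gut epithelium, fell by 1.45 in chr2 (edgeR adjusted p = 1.89e-20) and by 0.79 in chr9 (5.32e-12). Gpx7 fell by 0.41, 0.31 and 0.43 in chr7, chr3 and chr2 (edgeR adjusted p = 6.76e-06, 0.000294 and 2.39e-06) and was the one called lower in all 6 clones, as were 13.3% of all genes. Gpx3, which encodes the secreted peroxidase, rose by 0.42 in chr2 (edgeR adjusted p = 8.88e-07) and by 0.63 in chr9 (1.46e-09) and fell by 0.26 in chr3 (0.000803). None of the 4 rose in chr7 or chr3. Of all genes, 27.5% were called higher and 35.7% lower in chr7, and 25.3% and 35.5% in chr3. In chr2 the shares were 31.1% and 34.1%. With 4 genes, nothing is read from these counts.

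**Figure D4:**
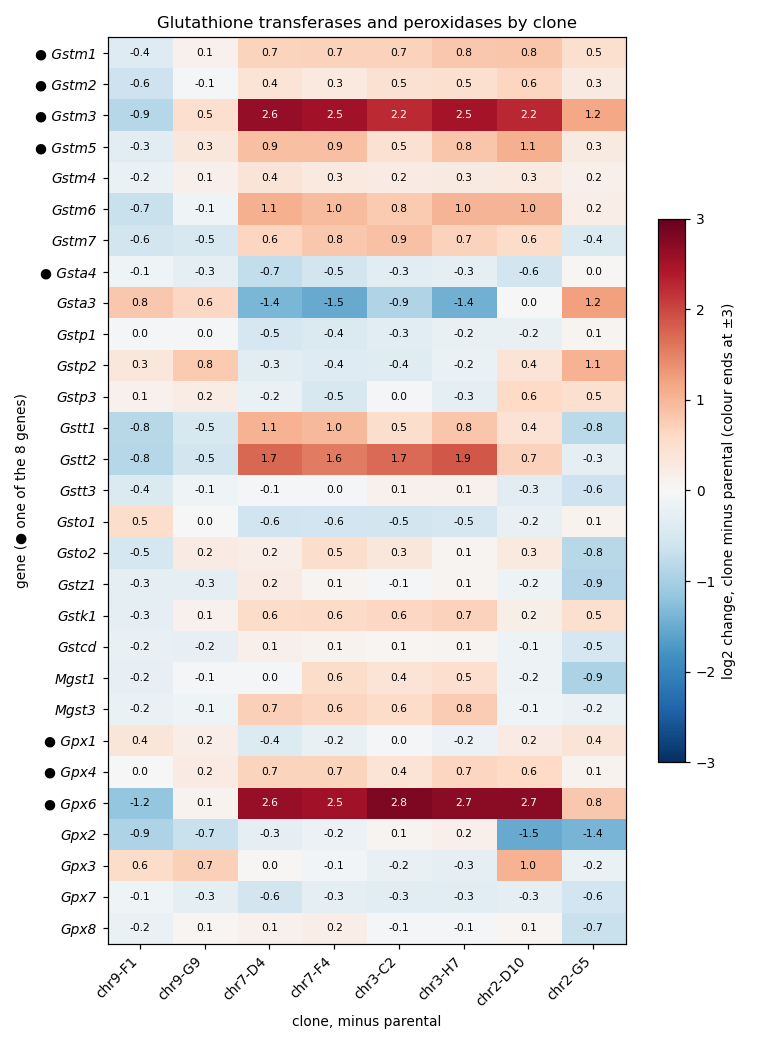
Log2 change against parental cells in each of the 8 clones for the glutathione transferase and peroxidase genes tested at 0.1 CPM or more in parental cells, with the 8 genes marked by a dot and colours ending at 3 on either side. Gstm3 and Gpx6 are darkest red in the chr7, chr3 and chr2-D10 clones, and Gsta3 and Gsto1 are blue in the chr7 and chr3 clones.

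Other genes of glutathione metabolism and of the NRF2 pathway were counted from lists written from pathway knowledge. Beside each list stand the shares of all genes: 27.5% called higher and 35.7% lower in chr7, and 25.3% and 35.5% in chr3. In chr2 these shares were 31.1% and 34.1%, and in chr9 17.1% and 20.5%. Of 27 genes of glutathione synthesis and recycling, edgeR called 6 higher and 12 lower in chr7, 4 and 10 in chr3, 7 and 15 in chr2, and 3 and 8 in chr9; their median log2 changes were -0.16, -0.0025, -0.23 and -0.038. The 4 that fell in all 6 clones, as did 13.3% of all genes, were Pgd, Gsr, Gclc and Cth. Pgd, of the NADPH-yielding pentose phosphate pathway, fell by 0.87, 0.52 and 0.83 in chr7, chr3 and chr2 (edgeR adjusted p = 1.31e-20, 4.25e-14 and 4.97e-20). Gsr, which encodes glutathione reductase, fell by 0.72, 0.49 and 0.57 (edgeR adjusted p = 7.07e-17, 4.12e-12 and 5.01e-14). Gclc, which encodes the catalytic subunit of the first enzyme of glutathione synthesis, fell by 0.36, 0.3 and 0.83 (edgeR adjusted p = 3.17e-08, 1.64e-06 and 1.6e-17). Cth, which makes cysteine from cystathionine, fell by 0.38, 0.22 and 0.7 (edgeR adjusted p = 5.99e-12, 1.62e-06 and 1.39e-19). A link of these falls to the higher Gstm3 and Gpx6 in the same clones was not tested.

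Of 22 NRF2 target genes outside the family, 8 were called higher and 5 lower in chr7, 11 and 4 in chr3, 8 and 9 in chr2, and 4 and 11 in chr9 (edgeR). Nqo1, a quinone reductase and a classical target, fell by 1.38, 1.06 and 1.46 in chr7, chr3 and chr2 (edgeR adjusted p = 2.38e-20, 6.51e-17 and 4.31e-21). Srxn1, which encodes sulfiredoxin, fell by 0.91, 0.63 and 1.2 (edgeR adjusted p = 1.32e-09, 8.26e-07 and 5.93e-12), and Ugdh fell by 0.61, 0.54 and 0.52 (1.21e-12, 3.11e-11 and 5.87e-11). Ephx1, the microsomal epoxide hydrolase, rose by 0.92, 0.87 and 0.99 (edgeR adjusted p = 2.55e-10, 8.73e-10 and 5.54e-11). Txn1 was the other target called higher in all 6 clones, at 0.49, 0.6 and 0.39 (edgeR adjusted p = 2.44e-11, 1.48e-13 and 3.26e-09). Of the 22 targets, 2 were called higher and 3 lower in all 6 clones, as were 9.02% and 13.3% of all genes. The part of NRF2 in the levels of Gstm3 and Gpx6 was not tested. Of 8 NRF2 regulators, 4 rose and 2 fell in chr7 and in chr3, 3 rose and 4 fell in chr2, and 6 fell in chr9 (3 without parental replicate 3). Keap1, the inhibitor, fell by 0.82, 0.61 and 0.88 in chr7, chr3 and chr2 (edgeR adjusted p = 1.51e-13, 3.02e-10 and 2.06e-14). The small Maf gene Mafk rose by 0.49, 0.5 and 0.55 (edgeR adjusted p = 1.04e-06, 8.14e-07 and 9.76e-08), and Maff rose by 0.38, 0.37 and 0.71 (0.000237, 0.000302 and 5.08e-09). Bach1, another of the 8 regulators, rose by 0.55, 0.66 and 0.21 (edgeR adjusted p = 3.64e-11, 3.81e-13 and 0.00101). It was not called higher in all 6 clones. Bach1 averaged 96.5 CPM in chr2-D10 and 65.2 CPM in chr2-G5, against 68.9 CPM in parental cells. Nfe2l2 itself was at -0.017, -0.063 and -0.27 (edgeR adjusted p = 0.731, 0.168 and 1.48e-07).

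Of 11 tested genes of thioredoxins and their reductases, peroxiredoxins, superoxide dismutases and catalase, of 12 listed, 7 rose and 2 fell in chr7, 8 and 2 in chr3, 4 and 4 in chr2, and 3 and 6 in chr9 (5 called without parental replicate 2). Prdx4, the peroxiredoxin of the endoplasmic reticulum, rose by 0.48, 0.34 and 0.98 in chr7, chr3 and chr2 (edgeR adjusted p = 2.6e-11, 7.6e-08 and 7.61e-20). Of 9 genes of selenoprotein synthesis, which Gpx1 and Gpx4 depend on, 3 rose and 4 fell in chr7, 2 and 4 in chr3, 1 and 7 in chr2, and 1 and 6 in chr9 (4 called without parental replicate 3). Sephs2, which makes the selenium donor, fell by 0.78, 0.59 and 1.01 (edgeR adjusted p = 1.63e-16, 5.87e-13 and 8.63e-20), and the elongation factor gene Eefsec fell by 0.74, 0.56 and 0.6 (3.29e-15, 1.03e-11 and 1.08e-12). Sephs2 and Eefsec fell in the same clones in which Gpx4 lay above parental cells, and a link between them was not tested.

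**Figure D5:**
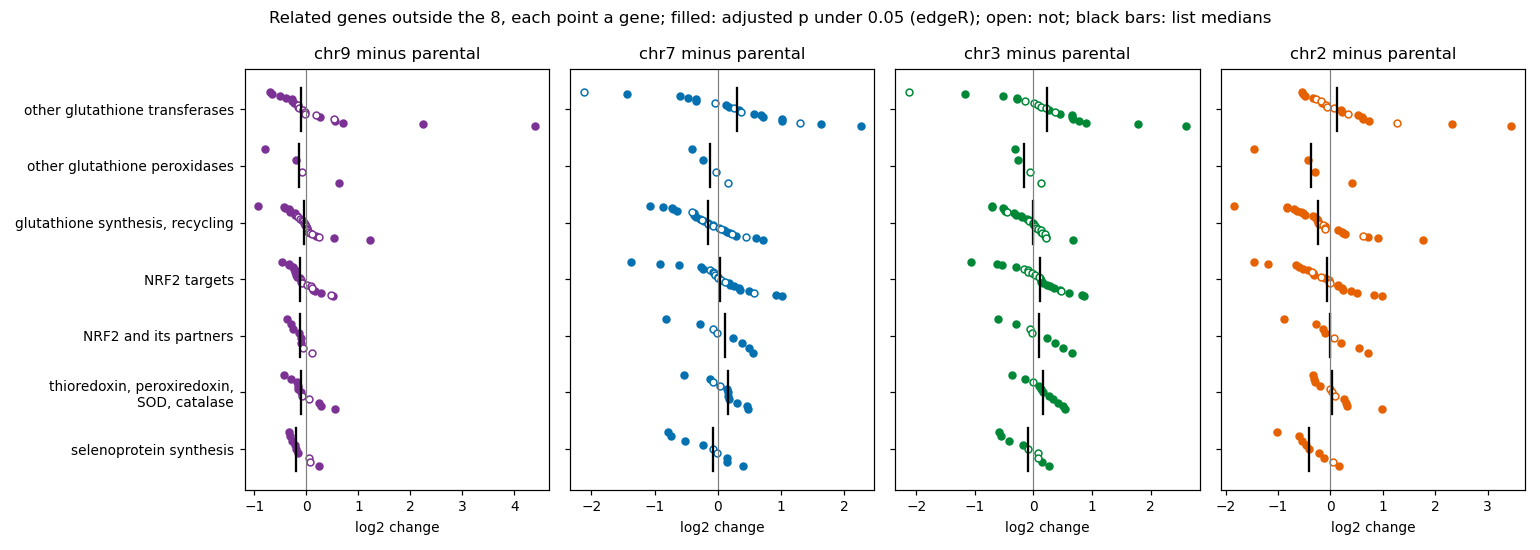
Log2 change against parental cells of each tested gene of the 7 related lists, in 1 panel each for the chr9, chr7, chr3 and chr2 clones, filled where the edgeR adjusted p was under 0.05, with a black bar at each list's median. Called NRF2 targets lie on both sides of 0 in every panel, and the 3 transferases beyond 2 on either side are Mgst2, Gsta2 and Hpgds, all under 0.1 CPM in parental cells.

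Genes next to the members were looked at for shared changes. Of 15 tested genes within 200 kb of the Gstm cluster, of 25 listed and members left out, 8 rose and 6 fell in chr7, 7 and 6 in chr3, 5 and 5 in chr2, and 1 and 6 in chr9 (edgeR). These 15 include the cluster genes Gstm4, Gstm6 and Gstm7, already counted among the other transferases. All of them rose in chr7 and chr3, Gstm4 and Gstm6 rose in chr2, and Gstm6 and Gstm7 fell in chr9. Of all genes, 27.5% were called higher and 35.7% lower in chr7, and 25.3% and 35.5% in chr3. In chr2 the shares were 31.1% and 34.1%, and in chr9 17.1% and 20.5%. Called higher in all 6 chr7, chr3 and chr2 clones were Ahcyl1, at log2 changes of 0.29, 0.25 and 0.35, the low-level Gm5075, at 1.72, 1.79 and 1.52 from 0.326 CPM in parental cells, and 4933431E20Rik. 4933431E20Rik overlaps Gstm5, and reads that fit both may have been set aside as ambiguous or given to the wrong gene. Its changes of 1.37 in chr7 and 1.12 in chr3 are uncertain to that extent. Gnai3 (-0.19, -0.3 and -0.33) and Atxn7l2 (-0.44, -0.41 and -0.9) were called lower in all 6. Of all genes, 9.02% were called higher and 13.3% lower in all 6. Of 11 tested genes around Gpx6, of 50 listed, 3 rose and 1 fell in chr7, 2 and 2 in chr3, 2 and 3 in chr2, and 1 and 5 in chr9. Trim27 (-0.28, -0.37 and -0.31) was called lower in all 6 clones, AK157302 was called higher in all 6 from 0.16 CPM in parental cells, and Gpx5, the nearest peroxidase paralog, was at 0 reads in parental cells.

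Chromatin maps came from E14 mouse embryonic stem cells, another line, grown without feeders, and each peak list pools its libraries, so they describe these loci and not the clones. Within 2 kb of the 8 genes the E14 H3K27me3 peak list held no peak, and 15.4% of 21887 protein-coding genes had one. PRC2 ChIA-PET peaks lay within 2 kb of Gstm5, Gpx1 and Gpx4, with the authors' fold enrichment of 2.34, 2.03 and 1.86. Of all protein-coding genes, 39.7% had one. The peaks at Gstm5 and Gpx1 covered the annotated start. That of Gpx4 lay past the annotated end of the gene, 9.67 kb from its start. RNA polymerase II ChIP peaks, given by the strongest at each gene, lay at Gpx1 (27.2), Gpx4 (17.2), Gsta4 (11.9) and Gstm1 (9.23), where 53.9% of genes had one. Gstm3 had 2 weak peaks in the RNA polymerase II ChIA-PET list, of 1.48 and 2.28, and none in the ChIP list, and Gstm2 and Gpx6 had no peak of RNA polymerase II in either list. CTCF peaks lay at Gsta4 (34.3) and Gstm1 (10.4), where 48.2% of genes had one.

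In the E14 PRC2 contact list of 309976 interactions, 32 had an anchor in the Gstm cluster, with 147 tags, and 4 had one at Gpx6, with 14 tags. The Ezh2 ChIA-PET libraries of the B6NJ lines were far shallower, at 4734 to 9354 interactions each. Per library, the chr9-F1 pair held 1 and 1 interactions at the cluster, the chr9-G9 pair 2 and 0, the chr7-D4 pair 1 and 1 and the chr7-F4 pair 1 and 0, against 0 and 0 in the parental pair. The labels of 1 chr9-F1 library disagree: its title names the clone, while its cell type entry names B6NJ primary cells, so which cells it holds is in doubt. Counts this low cannot separate the lines.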

How the data were processed

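RNA was read in 26 libraries of 9 B6NJ lines, made per the labels with a stranded polyA kit. The authors deposited gene counts, whole reads per gene and not normalized, made per the submitters' processing notes with Trim Galore 0.4.0, HISAT2 2.1.0 and HTSeq 0.6.1 (named for 25 libraries; for 1 library no tool is named). The rows without a gene stayed out: reads with no feature were 5.08% to 8.77% of all, ambiguous ones 1.46% to 1.62%. A symbol was matched to 99.6% of gene IDs, and 0 columns belonged to no sample. The deposited peak lists give the authors' fold enrichment (a ratio) and −log10 of the p-value, per the submitters' notes from BWA 0.7.12 and MACS2 2.1.1.20160309, and the deposited contact lists give tag counts, for E14 from ChiaSig 1.19.45.

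Counts were fitted in R 4.3.3 with edgeR 4.0.16 (limma 3.58.1): filterByExpr, TMM factors, glmQLFit and glmQLFTest on 9 line terms over all 26 libraries. Fitted values are log2 changes, p-values were adjusted by Benjamini-Hochberg over 19993 genes, and a call is an adjusted p under 0.05. CPM used the total of counted reads per library. The fit was tested on simulated data. Depth was 39.7 to 128 M counted reads, and Gpx6 had as few as 67 reads in a library. Alternatives were RLE size factors, no filter, DESeq2 1.42.0, a replicate block, only the compared libraries, thinning to the smallest library, and leaving out each library in turn. The members, lists and tests were chosen with earlier results of these data known. Named genes are the 8 members, other transferases, peroxidases and neighbours, up to 4 genes per other list with the largest mean change among those called the same way in all 6 chr7, chr3 and chr2 clones, and the 5 most like Gstm3 and Gpx6 among genes of at least 1 CPM on average. Txn1, Bach1 and Nfe2l2 are named besides. Tables were handled in Python 3.11.15 with pandas 2.3.3 and numpy 2.4.6, and figures drawn with matplotlib 3.10.9.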

Additional observations from a re-analysis of the deposited data

Results flagged for a closer look

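The clones of 1 deletion differed from each other by an edgeR test of the difference itself. For chr9-G9 minus chr9-F1, the log2 difference was 1.36 for Gstm3, 1.26 for Gpx6, 0.68 for Gstm5, 0.57 for Gstm2, 0.5 for Gstm1, 0.25 for Gpx4 and -0.14 for Gsta4. For chr2-G5 minus chr2-D10, it was -1.9 for Gpx6, -1.08 for Gstm3, -0.8 for Gstm5, -0.48 for Gpx4, -0.39 for Gstm2, -0.35 for Gstm1 and 0.59 for Gsta4. In the clones of chr7 and chr3 the differences past the threshold were 0.19 for Gsta4 (chr7-F4 minus chr7-D4) and 0.25 for Gpx4 (chr3-H7 minus chr3-C2). Each clone is 1 line, so differences that belong to a line and those of its deletion cannot be told apart.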

How the results depend on the processing

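Over the tested alternatives, 9176 values of single genes or loci kept direction and call, 154 lost the call, 60 gained it and 26 changed sign, all of these in values with no call. With all libraries thinned to 39702669 counts, Gstm2 was 0.011 in chr9-G9 minus parental (-0.054 as deposited) and Gstm5 -0.00015 in chr7-F4 minus chr7-D4. Thinning also moved Gstm2 to 0.46, 0.55 and 0.54 and Gpx4 to 0.74, 0.59 and 0.41 in chr7, chr3 and chr2 minus parental, Gsta4 to -0.57 in chr7, and the other peroxidases called in chr7 to 1. Between chr7-F4 and chr7-D4, 2 of the 8 genes were called with no filter and 0 with the compared libraries only. All genes called there numbered 580 with no filter, 458 by DESeq2 and 67 with the compared libraries only, and between chr3-H7 and chr3-C2 350, 393 and 366; the cause was not tested. Leaving out 1 library gave 0 to 1 called members in each of these clone pairs. Over all genes it gave 53 to 657 in chr7, 59 to 225 in chr3 and 3882 to 6550 in chr9-G9 minus chr9-F1, and in chr9 minus parental 3 to 6 regulators, 5 to 9 thioredoxin, peroxiredoxin, dismutase and catalase genes and 4 to 7 selenoprotein genes. Values that crossed 0 on leaving out a library ran between -0.075 and 0.064 for Gstm5 in chr9, -0.05 and 0.016 for Gpx4 in chr9-F1, and -0.051 and 0.26 for Gpx6 in chr9-G9. Between chr7-F4 and chr7-D4 they ran from -0.0032 to 0.045 for Gstm1, -0.062 to 0.12 for Gstm5, -0.045 to 0.037 for Gpx4 and -0.22 to 0.012 for Gpx6. Between chr3-H7 and chr3-C2 they ran from -0.014 to 0.073 for Gstm2 and -0.22 to 0.024 for Gpx6, and in chr2 minus chr3 from -0.04 to 0.014 for Gstm2 and -0.11 to 0.11 for Gstm5. With 10 kb around a gene, 4 of the 8 members had a CTCF peak, beside 64% of protein-coding genes. Over 26 libraries, 3 of the 5 genes most like Gstm3 and 2 of the 5 most like Gpx6 were again among the 5.

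Replicate numbers did not pair the samples. Of 100 same-numbered pairs of libraries of different lines, 0 had deviations correlated above 0.1 (median -0.00269), and 8 of 26 libraries correlated best with one of their own number. With the replicate number as a block, the members called were 4 in chr9 minus parental, 5 in chr9-F1, 4 in chr9-G9, 7 in chr9-G9 minus chr9-F1, 7 in chr2-G5 minus chr2-D10, 5 in chr7 minus chr3, 6 in chr2 minus chr7 and 4 in chr2 minus chr3. Of 19993 genes, the block fit called 7395 in chr9 minus parental, 5919 in chr9-G9 minus chr9-F1 and 10023 in chr2-G5 minus chr2-D10. It called 4688 in chr7 minus chr3, 10891 in chr2 minus chr7 and 11386 in chr2 minus chr3. Depth limits Gpx6 most, at 67 to 576 reads per library.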
